A study of Mus musculus with 74 samples.

Results

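Mice with 1 copy of the C442G allele of Aire were compared with their wild-type line mates: 5 libraries of genotype Aire +/C442G against 3 of genotype Aire +/+, 8 of the 74 libraries of the series. The libraries were chosen by title, genotype label and table, and by no measured value. The series profiled mature medullary thymic epithelial cells (mTEChi, sorted for abundant MHC class II) from mice that carry mutant alleles of Aire, using bulk MARS-seq, which counts tags from the 3' end of transcripts. Both groups were C57BL/6 mice aged 4 to 7 weeks. The table of this line also holds 6 libraries of genotype Aire C442G/C442G, whose levels are given for comparison. Heterozygotes are named by the numbers in their titles (81, 82, 85, 87 and 91), as are wild types (86, 88 and 89). The labels do not say whether each number is 1 mouse or a pool, so p-values measure the spread between these libraries, which may in part be technical.

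AIRE is a nuclear protein of medullary thymic epithelial cells that raises the transcription of many genes otherwise restricted to single tissues, so that developing T cells meet the peptides of those tissues. It works in large complexes that contain several AIRE molecules, and its PHD fingers are small zinc-binding domains held in shape by cysteines. C442G replaces a cysteine by a glycine in the part of the protein that holds the second of these fingers, PHD2. Loss of AIRE causes autoimmune polyendocrine syndrome, a disease inherited for the most part recessively, although missense alleles that act in a single copy are also known.

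The 8 libraries held 1751301 to 4189258 counts, and the 6 of C442G homozygotes 2834108 to 3748607. The 2 smallest totals were both wild type, so measures of detection were taken after thinning to the smallest total. The highest single gene took 1.59 to 2.68% of counts in the 8 libraries. The Y-linked transcripts Eif2s3y, Ddx3y, Kdm5d and Uty summed to 113 to 168 CPM (counts divided by the library total, scaled in the usual way) in 3 heterozygotes (85, 87 and 91) and to 131 CPM in 1 wild type (86), and to 3.01 to 9.62 CPM in the other 4, so the groups hold both classes but in unequal numbers. Nhlh2, a transcription factor gene, had 7880 counts (2930 CPM) in heterozygote 85 and 0 to 2 counts in each of the other 13 libraries of the table. It did not pass the filter on low counts and entered no test.

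The libraries had the markers of the labelled cell type. In wild type the MHC class II gene H2-Aa averaged 11721 CPM and the epithelial keratin Krt8 1912 CPM, against 16394 and 1651 CPM in heterozygotes. Markers of other cells were present too. The 21 thymocyte markers in the table summed to 327 to 488 CPM in wild type and to 247 to 284 CPM in heterozygotes. Lck among them stood at 21.9 to 29.6 against 7.09 to 10.4 CPM. The 18 myeloid markers summed to 1510 to 1810 CPM in wild type and to 1610 to 2190 CPM in heterozygotes, of which Lyz2 made up 534 to 704 and 719.8 to 1181 CPM. The 21 tuft-cell markers summed to 735 to 1030 against 494 to 885 CPM, and the 20 markers of keratinocyte-like cells to 2480 to 2710 against 1710 to 1960 CPM. The part of these cells in the changes below was not tested, and in bulk libraries fewer cells of a type and less RNA per cell cannot be told apart.

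Aire transcripts were higher in heterozygotes. Aire (GRCm38 chromosome 10, 78030022 to 78043610, minus strand) stood at 2279, 2056 and 2147 CPM in wild types 86, 88 and 89 and at 2530, 2845, 2496, 2759 and 3309 CPM in heterozygotes 81, 82, 85, 87 and 91. The lowest heterozygote was above the highest wild type. Means were 2161 ± 112 (SD, n = 3) and 2788 ± 327 CPM (SD, n = 5), a log2 fold change of 0.49 ± 0.12 (SE) with an adjusted p of 0.00268 (edgeR quasi-likelihood test). Homozygotes stood higher again, at 3689 to 4286 CPM. Tags from both alleles count alike, and a 3' tag does not read the changed codon.

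Of the 14 tested genes around Aire, 3 were called higher and 0 lower, with a median log2 fold change of 0.21 against 0.01 over all tested genes. Without heterozygote 91, 1 of them was called lower. Over all tested genes the shares called were 13.1% higher and 13.4% lower. Icosl, which encodes the ligand of the T cell receptor ICOS, lies at 78069302 to 78083913 on the plus strand and stood at 207, 198 and 246 CPM in wild type and 231, 247, 289.6, 276 and 327 CPM in heterozygotes. The ranges overlapped, the log2 fold change was 0.47 ± 0.13 with an adjusted p of 0.00771, and the call was lost without wild type 88 (0.36, adjusted p = 0.0893). Cstb, a cathepsin inhibitor gene, rose on the log2 scale by 0.46 ± 0.11 with no overlap of the ranges. Trappc10, which encodes a subunit of a vesicle tethering complex, had a log2 fold change of 0.37 ± 0.13 and lost its call without any 1 of wild types 86 and 89 and heterozygotes 87 and 91 (adjusted p 0.0545 to 0.133), and with DESeq2 (0.0785). Dnmt3l, a cofactor of DNA methylation whose annotated span overlaps Aire on the opposite strand, did not pass the test (log2 fold change 0.32 ± 0.14, adjusted p = 0.0821). Only reads from the shared stretch, 78041947 to 78043610, could be confused if counting ignored strand, which the sources used here do not state. That stretch holds the start of both genes, and whether reads fell there was not tested.

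Across the transcriptome 3610 of 13624 tested genes, 26.5%, differed between heterozygotes and wild type at an adjusted p under 0.05. Of these, 1784 (13.1%) were higher and 1826 (13.4%) lower in heterozygotes. The 2 directions differed in size: the median called change was 0.64 for higher and -1.16 for lower genes on the log2 scale, and 311 genes (2.28%) rose at least 2-fold against 1063 (7.8%) that fell at least 2-fold. Genes that fell had a median wild-type level of 18.7 CPM, close to the 18.4 CPM of genes not called, and genes that rose 41.4 CPM. The CPM ranges of the 5 heterozygotes and 3 wild types did not overlap for 3503 genes (25.7%).

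**Figure D1:**
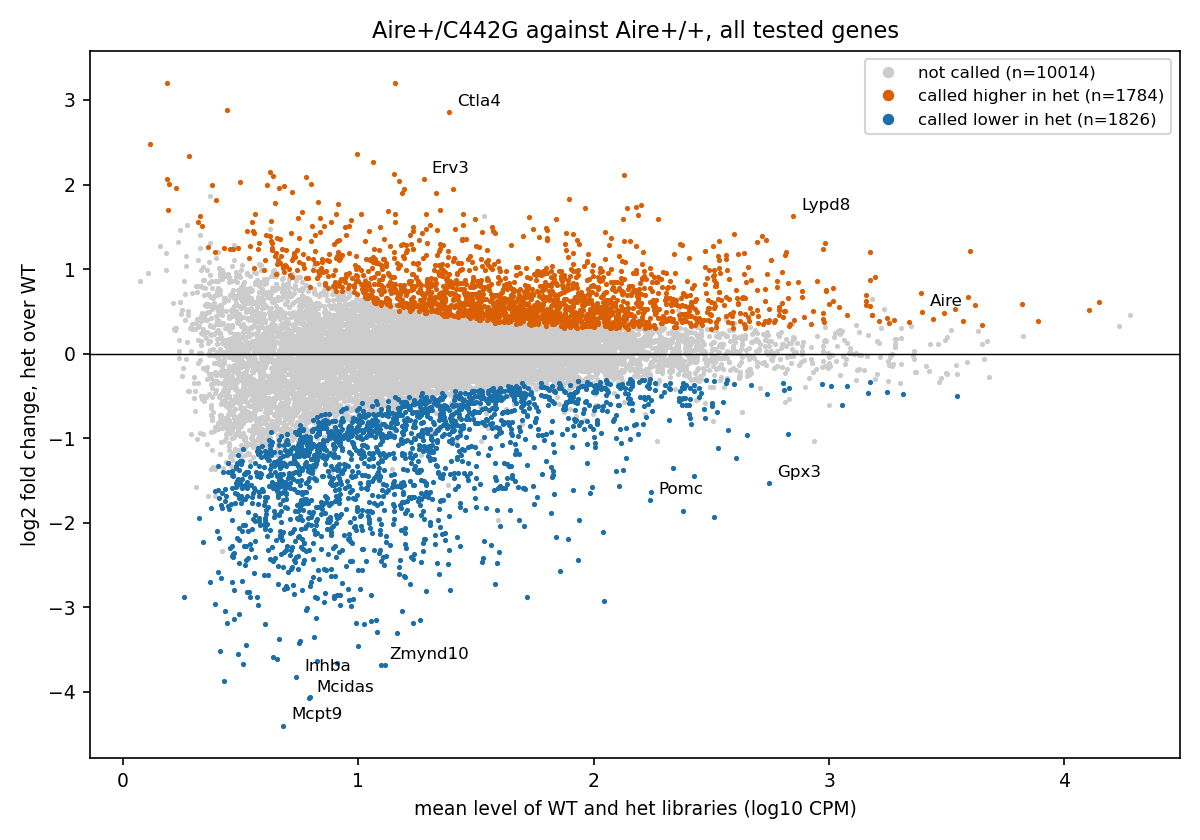
Log2 fold change of heterozygotes over wild type (vertical axis) against the mean level of the 2 groups (horizontal axis, log10 CPM) for each of the 13624 tested genes. Called genes are coloured: 1784 higher (orange) and 1826 lower (blue) in heterozygotes, with the lower ones reaching further from 0.

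The comparison was also made within each class of library by Y-linked transcripts, a split added after seeing the data. Among the 4 libraries low in Y-linked transcripts (2 heterozygotes against 2 wild types), 949 genes were called higher and 1009 lower. Among the 4 high in them (3 heterozygotes against wild type 86), 698 were higher and 623 lower, but wild type 86 stands alone there and is assumed to vary like the other libraries, so these calls rest on 1 wild-type library. Aire was 0.46 higher on the log2 scale in the first class (adjusted p = 0.0741) and 0.45 higher in the second (adjusted p = 0.179), and neither passed the test. With the class as a term in the fit of all libraries 1691 genes were higher and 1730 lower, and Aire was 0.47 higher (adjusted p = 0.00554).

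The gene with the largest rise that met the naming rule was Ctla4, the gene of a receptor that restrains T cell activation (chromosome 1, 60887000 to 60915832). It stood at 4.00, 7.38 and 6.83 CPM in wild type and at 54.5, 43.2, 32, 31.5 and 51.8 CPM in heterozygotes. Every heterozygote was far above every wild type, with a log2 fold change of 2.86 ± 0.24 and an adjusted p of 1.02e-09. Homozygotes held 54.3 to 83.3 CPM. Which cells held the Ctla4 transcripts was not tested. Of 16 tested thymocyte markers 3 were called lower, 0 higher and 13 not called, beside 13.4% lower and 13.1% higher over all tested genes. Among the lower ones Cd3d, part of the T cell receptor complex, stood at 13.1 to 23.9 CPM in wild type and 4.06 to 8.01 CPM in heterozygotes. The call of Cd3d was lost without wild type 89 (adjusted p = 0.155) or heterozygote 87 (adjusted p = 0.0646). The number of thymocyte markers called lower was 1 without wild type 89 and 5 without wild type 88.

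The other 9 genes that led the rise were low in wild type. The rule that named the 10 genes in each direction required ranges that do not overlap. Fam19a1, which encodes a secreted protein of the brain, stood at 1.71, 5.47 and 1.71 CPM in wild type and 22.9, 15.1, 11.5, 16 and 18.5 CPM in heterozygotes (log2 fold change 2.36 ± 0.29, adjusted p = 3.29e-07). Erv3, a gene derived from an endogenous retrovirus, stood at 6.85, 10.9 and 3.98 against 32.1, 32.8, 26.8, 30.1 and 31.1 CPM (log2 fold change 2.07 ± 0.24), and the heterozygotes varied little among themselves. The odorant receptor gene Olfr1136 stood at 5.14, 5.74 and 7.97 against 29.8, 23.8, 17.5, 20.8 and 26.2 CPM (log2 fold change 2.05 ± 0.33). Odorant receptors form a large family of similar genes, so its value is uncertain where counting could split reads between copies. Olfm3, a secreted neuronal glycoprotein gene, varied more among heterozygotes, at 38.9, 22.5, 10.8, 18.9 and 29.6 CPM against 5.19 to 9.14 CPM in wild type. Panct2, Ptchd4, Slitrk1 (a neuronal adhesion protein gene), Sval2 and Acot12 (a liver acyl-CoA thioesterase gene) rose by 1.98 to 2.11 on the log2 scale. The call of Sval2 was lost without wild type 88 (2.03, adjusted p = 0.0539). Acot12 shares its first bases with an antisense gene, 4833422C13Rik, that was also higher. Only reads from those bases could be confused without strand. Those bases lie at the start of both genes, and whether reads fell there was not tested.

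Mcidas, a regulator that starts the programme of multiciliated cells, the epithelial cells of airway and brain ventricle that bear motile cilia (chromosome 13, 112993845 to 113000394), stood at 7.99, 17.8 and 9.11 CPM in wild type and 0.458, 1.30, 0.744, 0.477 and 0.308 CPM in heterozygotes. No heterozygote came near a wild type, with a log2 fold change of -4.08 ± 0.47 and an adjusted p of 9.98e-08. Zmynd10, needed to assemble the dynein arms of motile cilia, stood at 19.4, 31.2 and 19.4 against 3.21, 0.864, 1.49, 1.19 and 1.85 CPM (log2 fold change -3.69 ± 0.32). Dynlrb2, a dynein light chain gene, stood at 6.28, 26.8 and 12 against 3.67, 0.864, 0.372, 0.477 and 0.924 CPM (log2 fold change -3.66 ± 0.50), with heterozygote 81 above the other 4. Ccdc42, which encodes a coiled-coil protein of the sperm tail, stood at 5.71, 7.93 and 4.55 against 0, 0.864, 0.744, 0.477 and 0 CPM (log2 fold change -3.68 ± 0.57). These are 4 of the 10 leading lower genes, not a list of ciliary genes, and Dnah9, an axonemal dynein gene of motile cilia, was higher in heterozygotes (40.6 CPM in wild type and 59.5 CPM in heterozygotes on average, log2 fold change 0.67, adjusted p = 0.00035).

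The other 6 of the 10 leading lower genes included 3 expressed in retina (Pcp2, Guca1a and Cabp1). Mcpt9, a mast cell protease gene, stood at 3.43, 7.38 and 16.5 CPM in wild type and 1.37, 0.432, 0, 0 and 0.308 CPM in heterozygotes (log2 fold change -4.40 ± 0.63). Lce1i, a gene of the late cornified envelope of skin (chromosome 3, 92777210 to 92778899), stood at 12.6, 15.9 and 6.83 against 1.37, 0.864, 0.744, 0.239 and 0.308 CPM (log2 fold change -4.06 ± 0.47). Inhba, which encodes the activin A subunit, stood at 7.42, 9.57 and 13.7 against 0.916, 0.432, 0, 0.477 and 1.23 CPM (log2 fold change -3.83 ± 0.49). All 3 were at or below 1.37 CPM in every heterozygote. Pcp2, a gene of Purkinje and retinal bipolar cells, was 24.6, 21.9 and 25.6 CPM in wild type and 5.96, 0.432, 0.744, 1.43 and 0.616 CPM in heterozygotes (log2 fold change -3.68 ± 0.40), again with heterozygote 81 the highest. Guca1a, a calcium sensor of photoreceptors, and Cabp1, a calcium-binding protein of neurons and retina, fell (log2 fold changes -3.63 ± 0.46 and -3.61 ± 0.53). Lce1i belongs to a cluster of near-identical genes, so its count is uncertain in the same way as that of Olfr1136.

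**Figure D2:**
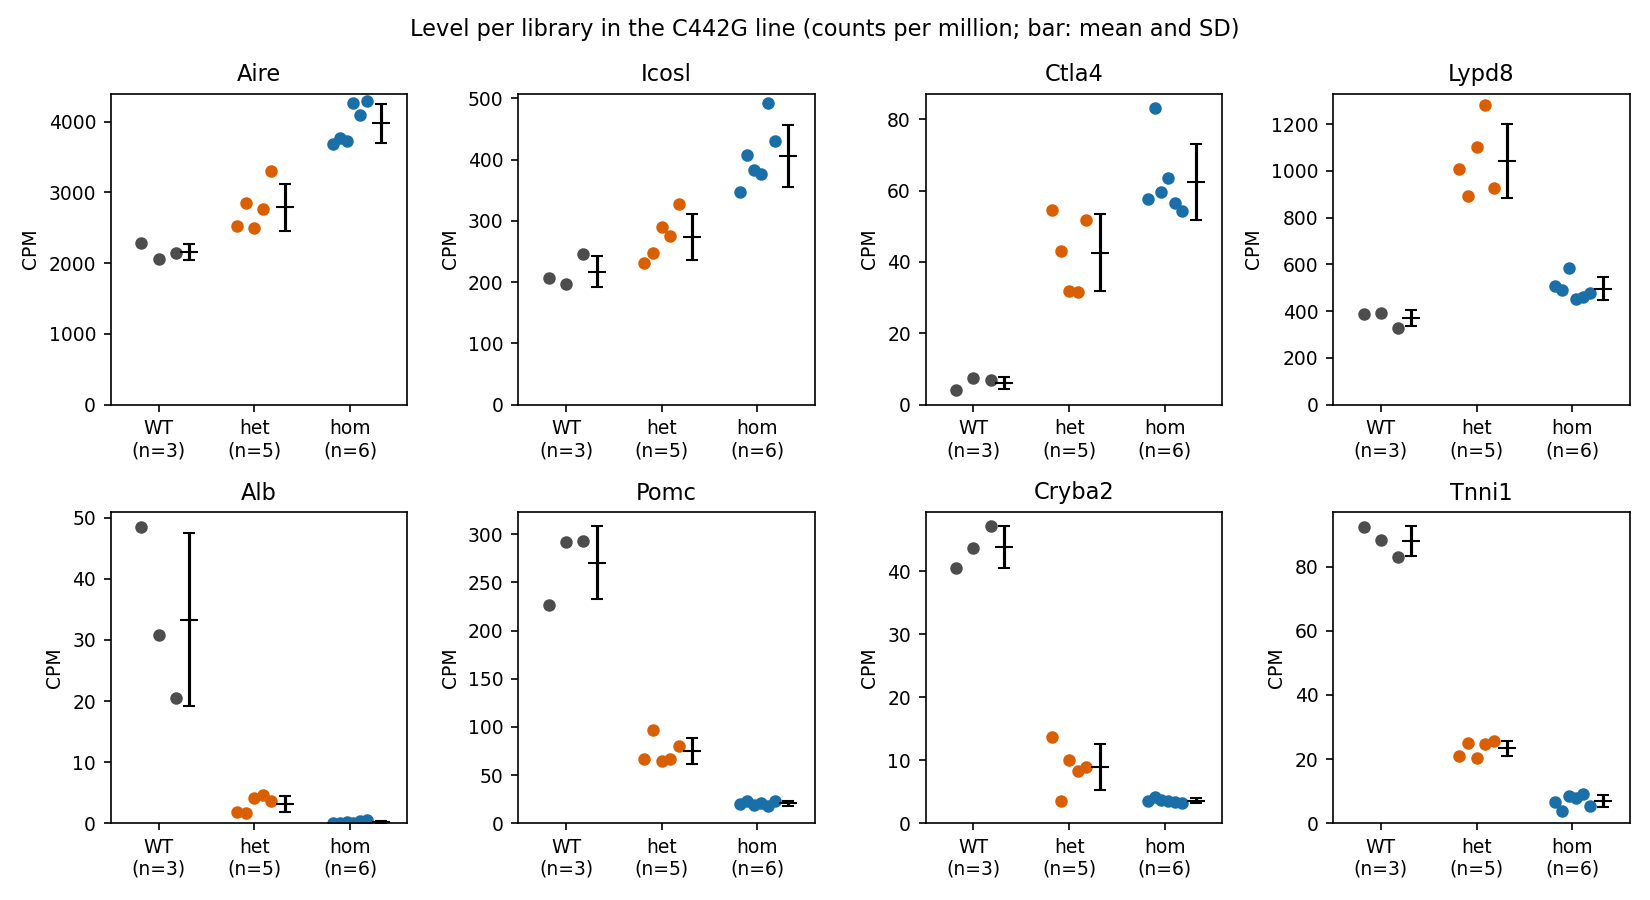
CPM per library (points) in wild types (n = 3), C442G heterozygotes (n = 5) and C442G homozygotes (n = 6), with the mean and SD of each group as a bar to the right. The means of Aire, Icosl and Ctla4 rise from left to right, Lypd8 is highest in heterozygotes, and Alb, Pomc, Cryba2 and Tnni1 fall, with no heterozygote as high as a wild type for these 4.

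Genes known to be induced by AIRE, and genes typical of single organs, were called lower more often than higher in each list below up to that of milk and salivary genes. Of 30 tested members of a list of AIRE-induced antigens 21 were called lower and 4 higher, with a median log2 fold change of -1.29. The background shares of called genes are those given above, 13.4% lower and 13.1% higher. Avp, the vasopressin precursor, stood at 105, 159.9 and 180.5 CPM in wild type and 45.4, 49.7, 34.6, 39.4 and 49.3 CPM in heterozygotes (log2 fold change -1.65 ± 0.16, adjusted p = 5.35e-09). Homozygotes held 0.314 to 1.96 CPM of it, so the heterozygote level lay between the other 2 groups without overlap. The 4 that rose were Resp18, Csn2, Csn3 and Fabp9, and members of this list recur in the organ lists below. Its summed level overlapped between groups, at 8570 to 9540 CPM in wild type and 7390 to 9380 CPM in heterozygotes without Nhlh2. Reg3g, an antimicrobial lectin of the gut and an abundant member of the list, averaged 2695 and 2672 CPM and did not pass the test.

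In the pancreas list 14 of 27 tested genes fell and 1 rose (median -0.71), and the summed level was 1710 to 2050 CPM in wild type and 1050 to 1130 CPM in heterozygotes. Ins2, an insulin gene, stood at 67.4, 111 and 111 CPM in wild type and 37.6, 28.1, 38.7, 36.3 and 33.9 CPM in heterozygotes (log2 fold change -1.34 ± 0.17, adjusted p = 8.33e-07). Sst, somatostatin of islet delta cells, stood at 148, 134 and 167 against 58.2, 41, 58, 35.6 and 38.8 CPM (log2 fold change -1.57 ± 0.16). For both genes the groups were far apart, and homozygotes were at 0 to 1.06 CPM for Ins2. Cela3b, a digestive elastase, stood at 31.4, 29.2 and 37 against 9.16, 10.8, 9.67, 9.55 and 15.7 CPM (log2 fold change -1.42 ± 0.21). The member that rose was Ptprn2, a phosphatase-like protein of secretory granules and a target of islet autoantibodies, at 34.8, 36.4 and 27.3 against 63.2, 54.4, 51.3, 53.5 and 48.1 CPM (log2 fold change 0.83 ± 0.14). Ctrb1, chymotrypsinogen, averaged 214 and 118 CPM and did not pass the test (adjusted p = 0.307).

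The liver list divided: 10 of 21 tested genes fell and 4 rose (median -0.78). Alb, serum albumin, stood at 48.5, 30.9 and 20.5 CPM in wild type and 1.83, 1.73, 4.09, 4.54 and 3.70 CPM in heterozygotes (log2 fold change -3.16 ± 0.30, adjusted p = 2.97e-09). Fgb, a fibrinogen chain, stood at 22.8, 32 and 24.5 against 5.04, 3.89, 5.58, 5.73 and 4.93 CPM (log2 fold change -2.26 ± 0.26), and Hp, haptoglobin, at 53.1, 85.8 and 95.6 against 20.2, 19.4, 17.5, 13.8 and 21.6 CPM (log2 fold change -1.97 ± 0.21). No range overlapped for these 3. Rbp4, the retinol carrier of plasma, fell (log2 fold change -2.28 ± 0.34). The 4 that rose were Ttr, the thyroid hormone carrier transthyretin, the apolipoprotein genes Apoc3 and Apob, and F2, prothrombin, with log2 fold changes of 1.60, 1.13, 1.09 and 0.76. Apob stood at 17.7, 13.9 and 20.5 CPM in wild type and 33.4, 33.3, 28.3, 27.7 and 42.5 CPM in heterozygotes, above every wild type. Within the libraries low in Y-linked transcripts 1 rather than 4 liver genes was called higher, and within those high in them 0.

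The gut list was divided too, with 13 of 31 tested genes lower and 5 higher (median -0.62). Lypd8, a colonic protein that keeps bacteria off the epithelium, stood at 386, 391 and 329.6 CPM in wild type and 1008, 892, 1102, 1284 and 926 CPM in heterozygotes. All 5 heterozygotes were above all 3 wild types (log2 fold change 1.63 ± 0.13, adjusted p = 2.42e-10), and homozygotes held 450.5 to 586 CPM. Reg4, a secreted lectin of enteroendocrine and goblet cells, moved the other way, from 69.1, 55.5 and 46.7 to 13.3, 6.91, 11.5, 11.9 and 12 CPM (log2 fold change -2.21 ± 0.18). Fabp2, the intestinal fatty acid binding protein gene, and Cck, cholecystokinin, fell (log2 fold changes -1.44 ± 0.17 and -1.39 ± 0.17). The others that rose were Guca2a and Guca2b, the peptide ligands of intestinal guanylate cyclase, Vil1, villin of the brush border, and Mep1a, a brush border protease, with log2 fold changes of 0.84, 0.71, 0.76 and 0.35. Without wild type 88, without wild type 89, or within the libraries low in Y-linked transcripts, 3 rather than 5 gut genes were called higher.

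Of 25 tested neuropeptide and neuronal genes 14 fell and 3 rose (median -0.84). Pomc, the precursor of ACTH and melanocortins (chromosome 12, 3954951 to 3960642), stood at 227, 292 and 293 CPM in wild type and 66.9, 96.8, 64.3, 66.4 and 80.1 CPM in heterozygotes. The groups were well apart, with a log2 fold change of -1.73 ± 0.13 and an adjusted p of 3.46e-11. Oxt, oxytocin, stood at 136, 179.8 and 224 against 34.4, 45.8, 35.3, 35.8 and 40.1 CPM (log2 fold change -2.11 ± 0.19). Resp18, a protein of neuroendocrine secretory granules, was higher, at 316, 345 and 313 against 834, 585, 944, 731 and 682 CPM (log2 fold change 1.35 ± 0.14, adjusted p = 1.22e-08). The other 2 that rose were Calcb, a calcitonin gene-related peptide gene, and Syt1, the calcium sensor of synaptic vesicles, with log2 fold changes of 0.86 and 0.60.

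In the lens and retina list 11 of 13 tested genes fell and 0 rose (median -1.59), and the summed level dropped from 459 to 551 CPM in wild type to 169 to 195 CPM in heterozygotes. Cryba2, a lens beta crystallin gene, stood at 40.5, 43.7 and 47.3 CPM in wild type and 13.7, 3.46, 10, 8.35 and 8.94 CPM in heterozygotes (log2 fold change -2.17 ± 0.21). The crystallin genes Crybb2, Cryaa and Cryba4 fell (log2 fold changes -2.32 ± 0.26, -1.69 ± 0.21 and -1.59 ± 0.18). In the muscle and heart list 17 of 25 fell and 1 rose (median -1.05). Tnni1, slow skeletal troponin I, stood at 92.5, 88.3 and 83.1 CPM in wild type and 21.1, 25.1, 20.4, 24.6 and 25.6 CPM in heterozygotes (log2 fold change -1.78 ± 0.15, adjusted p = 4.59e-10), with little spread in either group. Myl7 and Myl4, atrial myosin light chains, and Myh3, embryonic myosin, fell (log2 fold changes -1.05 ± 0.13, -1.40 ± 0.18 and -1.75 ± 0.25), and Des, the muscle intermediate filament gene desmin, rose on the log2 scale by 0.77.

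In the milk, casein and salivary list 14 of 17 tested genes fell and 2 rose (median -1.89), and without wild type 89 1 rose, yet the summed level was 1060 to 2020 CPM in wild type and 1720 to 2780 CPM in heterozygotes. That sum was carried by Csn2, beta casein, which rose from 628, 1306 and 956 CPM to 2275, 1911, 1533, 1873 and 2554 CPM (log2 fold change 1.20 ± 0.18, adjusted p = 2.61e-05). Csn3, kappa casein, rose on the log2 scale by 0.88, and most other members were far less abundant and fell. Wap, whey acidic protein, stood at 22.8, 35 and 37.6 against 4.12, 4.32, 10, 5.73 and 4.31 CPM (log2 fold change -2.34 ± 0.27), and Lcn3, a lipocalin of nasal and vomeronasal glands, at 36, 37.7 and 50.7 against 5.50, 7.78, 8.92, 5.73 and 5.86 CPM (log2 fold change -2.49 ± 0.23). Obp2a, an odorant binding protein gene, and Dcpp2, of the demilune cells of salivary glands, fell (log2 fold changes -1.89 ± 0.19 and -2.30 ± 0.27). Dcpp2 has close copies, and its count is uncertain for that reason. Within the libraries high in Y-linked transcripts, where 1 wild type remains, the numbers called lower in the lists were 10 (AIRE-induced), 8 (pancreas), 5 (liver), 8 (gut), 9 (neuronal), 7 (lens and retina), 8 (muscle) and 8 (milk and salivary).

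Genes reported to depend on FEZF2, a second regulator of tissue genes in the medulla, mostly did not fall. Fezf2 itself averaged 1201 CPM in wild type and 1195 CPM in heterozygotes and did not pass the test (log2 fold change 0.12, adjusted p = 0.512). Of 16 tested genes of that list, Fezf2 included, 8 rose and 1 fell (median 0.66). Over all tested genes the calls were 13.1% higher and 13.4% lower. Without wild type 86 or heterozygote 81, 3 genes of the list fell. Within the libraries low in Y-linked transcripts 5 of them were called higher and 2 lower. Several rises were already given for other lists: Resp18, Csn2, Ttr, Apob and Apoc3. Maoa, monoamine oxidase A, rose on the log2 scale by 1.08. Grap, an adaptor protein gene, stood at 388, 351 and 307 CPM in wild type and 449, 533, 457, 548 and 527 CPM in heterozygotes (log2 fold change 0.66 ± 0.12), and Fabp9, a testis fatty acid binding protein gene, rose on the log2 scale by 0.67. The member that fell was Krt10, a keratin of the upper epidermis, at 191, 184 and 170.2 against 69.2, 88.5, 96.7, 76.9 and 67.2 CPM (log2 fold change -1.06 ± 0.19).

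**Figure D3:**
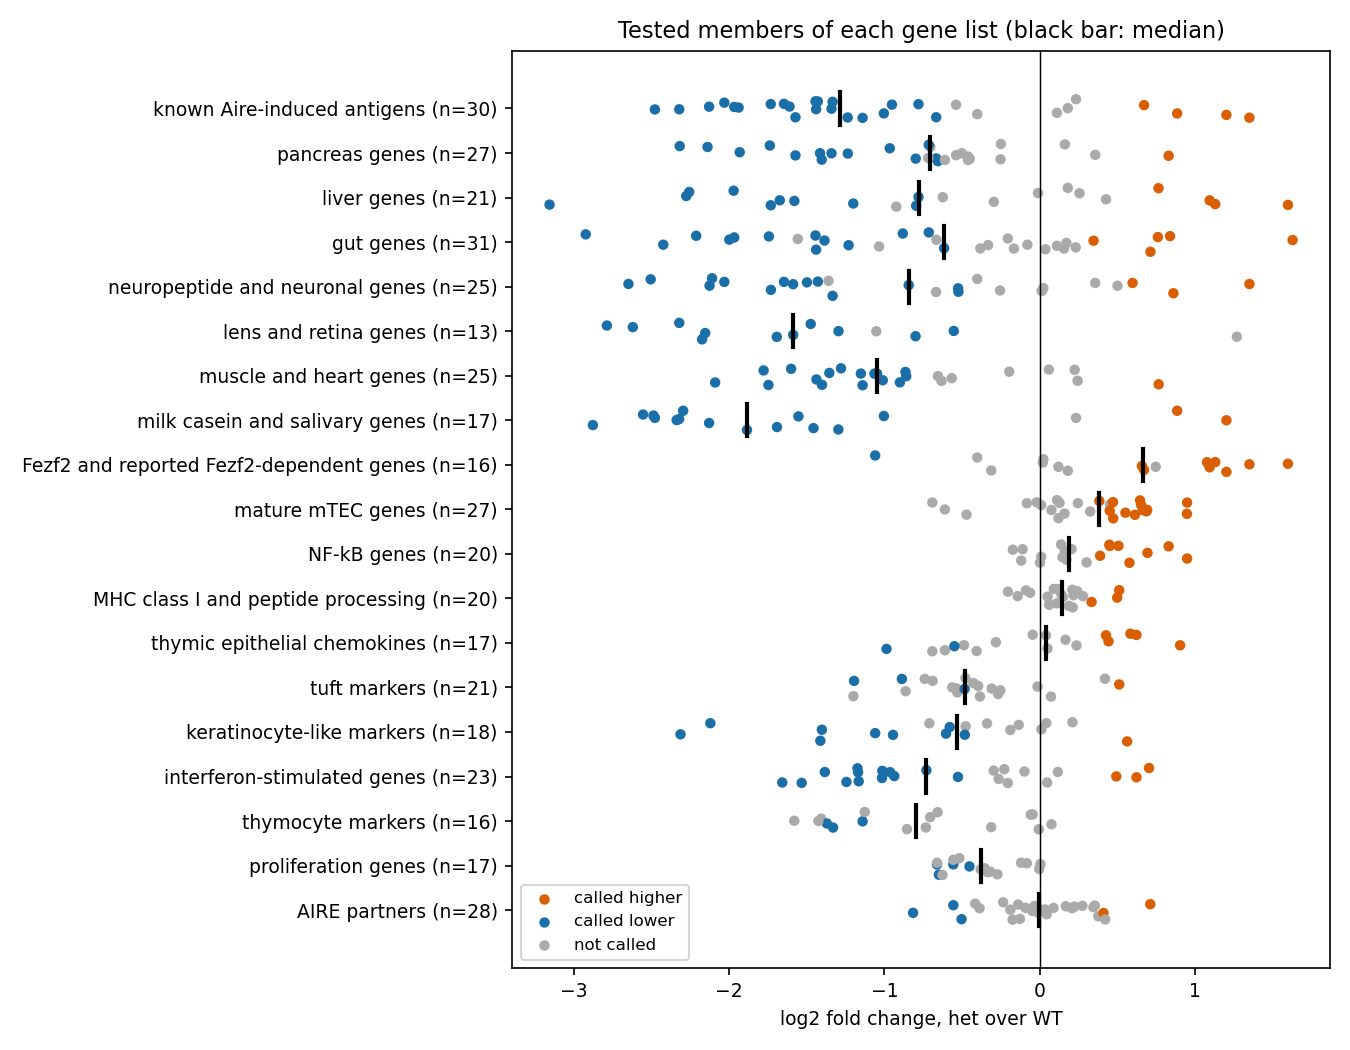
Log2 fold change of heterozygotes over wild type (horizontal axis) for each tested member of 19 gene lists (points), coloured by call, with the median of each list as a black bar. The organ lists lie mostly left of 0, with medians of -0.62 to -1.89, and the mature mTEC and Fezf2 lists right of it, with medians of 0.38 and 0.66.

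Of 27 tested genes of the mature mTEC itself 13 rose and 0 fell (median 0.38). Cd80, a costimulatory ligand for T cells, stood at 44.5, 43.5 and 38.7 CPM in wild type and 106, 67.4, 82.2, 62.5 and 57.9 CPM in heterozygotes (log2 fold change 0.95 ± 0.16, adjusted p = 3.24e-05). Ctss, the protease cathepsin S that trims MHC class II ligands, stood at 322, 345 and 329.6 against 481, 460.5, 491, 474 and 483 CPM (log2 fold change 0.65 ± 0.11). The 5 heterozygotes lay within a narrow band there, above every wild type. H2-Oa, a regulator of peptide loading, rose on the log2 scale by 0.69 ± 0.11 and Tnfrsf11b, the RANKL decoy osteoprotegerin, by 0.95 ± 0.15. Cd40, Epcam, Krt8 and Krt18 did not pass the test, with log2 fold changes of -0.08 to 0.13. With DESeq2 and with 2 other settings 1 gene of the list was called lower, and within the libraries low in Y-linked transcripts 5 rather than 13 were called higher.

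Among 20 genes of MHC class I presentation 3 rose and 0 fell (median 0.14), a share of rises near the 13.1% called higher over all tested genes. Within the classes low and high in Y-linked transcripts 0 and 1 were called higher. B2m, the class I light chain, stood at 10586, 11424 and 11156 CPM in wild type and 18040, 12714, 15595, 12298 and 13501 CPM in heterozygotes (log2 fold change 0.51 ± 0.14). Tapbp, tapasin, rose on the log2 scale by 0.50 ± 0.11, while the call of H2-D1, a class I heavy chain gene (log2 fold change 0.33 ± 0.12), was lost without any 1 of wild types 88 and 89 and heterozygotes 82, 87 and 91 (adjusted p 0.0646 to 0.155). Of 20 NF-kB pathway genes, the pathway through which RANK and CD40 signals mature mTEC, 8 rose and 0 fell (median 0.19). Map3k14, the kinase NIK of the noncanonical branch, stood at 97.6, 89.9 and 76.3 CPM in wild type and 144, 128, 113, 139 and 127 CPM in heterozygotes (log2 fold change 0.69 ± 0.12). All heterozygotes were above all wild types for it. Traf6, an adaptor below RANK, and Birc3, an inhibitor of apoptosis that NF-kB induces, rose on the log2 scale by 0.83 ± 0.15 and 0.51 ± 0.10.

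Of 17 chemokine genes made by thymic epithelium 5 rose and 2 fell (median 0.04). The shares over all tested genes were 13.1% higher and 13.4% lower, so the share of chemokine genes that fell was near background. Ccl25, which draws in T cell precursors, stood at 836, 1509 and 1124 CPM in wild type and 2554, 1988, 1620, 1654 and 2096 CPM in heterozygotes (log2 fold change 0.90 ± 0.15). Cxcl16 and Cxcl10 rose on the log2 scale by 0.58 ± 0.14 and 0.62 ± 0.15. Xcl1, which attracts dendritic cells to the medulla, stood at 23.4, 48.6 and 43.8 against 22.4, 24.2, 10.8, 16 and 18.8 CPM, and its call (log2 fold change -0.99 ± 0.27) was lost without wild type 88 (-0.81, adjusted p = 0.0842). Without wild type 86 there were 3 rather than 5 calls higher, and 1 rather than 2 lower without any 1 wild type. Within the libraries low in Y-linked transcripts 3 of the chemokine genes were called higher and 0 lower.

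Of 23 tested interferon-stimulated genes 13 fell and 3 rose (median -0.73), with 7 and 8 lower within the classes low and high in Y-linked transcripts. Isg15, a ubiquitin-like modifier, stood at 206, 181 and 202 CPM in wild type and 70.6, 99.8, 116, 80 and 76.4 CPM in heterozygotes (log2 fold change -1.02 ± 0.15, adjusted p = 5.8e-06). Gbp3, a guanylate binding protein gene, stood at 38.8, 37.2 and 37 against 17, 15.6, 13.8, 13.4 and 13.6 CPM (log2 fold change -1.25 ± 0.20), with the groups well apart. Rsad2, which encodes the antiviral enzyme viperin, and Oas1a, an oligoadenylate synthetase gene, fell (log2 fold changes -1.66 ± 0.28 and -1.53 ± 0.26). Ifit1, which blocks viral RNA, Usp18, which removes ISG15, and the chemokine gene Cxcl10 rose, with log2 fold changes of 0.70, 0.49 and 0.62. The share of these interferon-stimulated genes that rose was near the 13.1% called higher over all tested genes, where 13.4% were called lower.

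Some markers of other epithelial and thymic cells were called too. Over all tested genes 13.1% were called higher and 13.4% lower. Several counts here and in the marker, proliferation and immediate-early lists below lie near those shares. Of 18 tested markers of keratinocyte-like cells 9 fell and 1 rose (median -0.53). Klk5, a skin protease gene, stood at 20.6, 50.8 and 43.8 CPM in wild type and 9.62, 6.91, 4.83, 10.7 and 8.32 CPM in heterozygotes (log2 fold change -2.12 ± 0.23), and Krt77 fell (log2 fold change -2.31 ± 0.37). Of 21 tuft-cell markers 3 fell and 1 rose (median -0.48), so the share that fell was near the 13.4% called lower over all tested genes and the share that rose was below the 13.1% called higher. Those calls were unsteady: Lrmp and Ptgs1 lost their call without any 1 of wild types 86 and 89 and heterozygotes 81 and 82 (Ptgs1 also without wild type 88), and Gng13 without wild type 86 or 88. The number lower was 1 without wild type 86 or 89 or heterozygote 82, and 9 without heterozygote 85. Dclk1 and Pou2f3, which define tuft cells, did not pass the test (log2 fold changes -0.86 and -0.48, adjusted p = 0.0775 and 0.253).

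Of 9 tested markers of immature mTEC 2 rose and 4 fell (median -0.46), and 2 rather than 4 fell without wild type 86. Dcn, decorin, stood at 61.1, 77.9 and 84.8 CPM in wild type and 269, 201, 176, 193 and 299.5 CPM in heterozygotes (log2 fold change 1.73 ± 0.18), and Itga6, an integrin of basal epithelium, rose on the log2 scale by 0.60 ± 0.11. Krt14 and Krt15, keratins of basal epithelium, fell (log2 fold changes -0.46 ± 0.14 and -1.03 ± 0.26), and the call of Krt14 was lost without wild type 86 (-0.26, adjusted p = 0.201). Of 12 markers of cortical epithelium 4 rose and 2 fell (median -0.30), among them Ccl25 (above) and Dll4, the Notch ligand that commits T cells (log2 fold change -0.73 ± 0.15). Without wild type 86 these counts were 2 and 1.

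Of 16 tested thymocyte markers 3 fell and 0 rose (median -0.79): Lck (log2 fold change -1.37 ± 0.22), Cd2 (log2 fold change -1.33 ± 0.40) and Cd3d (log2 fold change -1.14 ± 0.37). Without wild type 89 this was 1 gene and without wild type 88 it was 5. The call of Cd2 was also lost without wild type 86 (adjusted p = 0.0564) and that of Cd3d without heterozygote 87 (adjusted p = 0.0646). Of 17 myeloid markers 5 rose and 4 fell (median -0.23), with Fcer1g, an Fc receptor chain, at 62.2, 92.9 and 75.1 against 166, 129, 155, 118 and 130.0 CPM (log2 fold change 0.97 ± 0.13) and the complement gene C1qc at 58.8, 61.2 and 58.1 against 25.7, 46.2, 23.8, 25.3 and 27.7 CPM (log2 fold change -0.89 ± 0.17). Of 7 B cell markers 1 rose, Blnk, an adaptor of B cell receptor signalling (log2 fold change 0.60 ± 0.11), and 2 fell, Vpreb3, a pre-B cell protein gene (log2 fold change -1.88 ± 0.35), and Jchain, the linker of polymeric antibodies (log2 fold change -1.13 ± 0.36), the last losing its call without wild type 88 (-0.68, adjusted p = 0.332). Of 10 fibroblast and endothelial markers 1 rose (Dcn) and 2 fell, Col1a1, a collagen I chain (log2 fold change -1.49 ± 0.20), and Vwf, von Willebrand factor (log2 fold change -0.53 ± 0.18), and Vwf lost its call without wild type 89 or heterozygote 81 or 82 (adjusted p 0.0593 to 0.333). Alas2, a haem synthesis enzyme of red cell precursors and the only tested erythroid marker, did not pass the test (adjusted p = 0.141).

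Of 17 proliferation genes 4 fell and 0 rose (median -0.38). Mki67, a marker of cycling cells, stood at 66.8, 53.6 and 54.7 CPM in wild type and 34.4, 39.3, 30.9, 32.7 and 31.1 CPM in heterozygotes (log2 fold change -0.66 ± 0.18). Top2a, Ccnb2 and Mcm7 fell (log2 fold changes -0.56 ± 0.17, -0.65 ± 0.21 and -0.45 ± 0.16), and each lost its call without wild type 88 (adjusted p 0.0752 to 0.127). Ccnb2 and Mcm7 also lost it without heterozygote 82, and Mcm7 without wild type 86 or heterozygote 87. Of 18 immediate-early and heat-shock genes, which respond to handling of tissue, 3 fell and 1 rose (median -0.06), with 5 lower under DESeq2 and 1 lower without wild type 86 or heterozygote 87. Nr4a1, which cells switch on within minutes of a stimulus, stood at 62.2, 54.9 and 35.9 against 14.2, 31.5, 17.8, 24.1 and 19.7 CPM (log2 fold change -1.12 ± 0.24), and the chaperone gene Hsph1 at 109, 115 and 129.8 against 219, 149.9, 167, 187 and 188 CPM (log2 fold change 0.76 ± 0.13).

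Of 28 tested genes for proteins reported to bind AIRE or to be needed for its action 2 rose and 3 fell (median -0.01), shares close to or below the background. Without wild type 86 or heterozygote 81 or 91, 1 rather than 2 rose. Sirt1, a deacetylase that acts on AIRE, stood at 143, 251 and 175 CPM in wild type and 334, 305, 203, 271 and 324 CPM in heterozygotes (log2 fold change 0.71 ± 0.17), with overlapping ranges. Chd4, a chromatin remodeller, stood at 234, 261 and 211 against 148, 179, 121, 159 and 154 CPM (log2 fold change -0.50 ± 0.11), without overlap. Xrcc5, the Ku80 subunit of DNA repair, fell (log2 fold change -0.82 ± 0.17).

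Some genes were highest in heterozygotes of the 3 genotypes of the line. This search was added after seeing the data, and both of its contrasts use the same heterozygote libraries. Of the tested genes 141 (1.03%) were called higher in heterozygotes than in both wild types and C442G homozygotes, 65 of them with no overlap of ranges. Another 29 (0.213%) were called lower than in both, 7 of them with no overlap. The heterozygote mean differed from the midpoint of wild types and homozygotes on the log2 scale for 1035 genes (7.6%). In the lists 5 of 31 gut genes (Vil1, Lypd8, Mep1a, Guca2a and Guca2b), 3 of 21 liver genes (Ttr, Apob and Apoc3) and 5 of 16 FEZF2-list genes (Apob, Apoc3, Fabp9, Ttr and Resp18) were above both groups, and 0 of the pancreas, lens, muscle and milk lists. Also above both were 2 genes of the AIRE-induced list. The neuronal, chemokine, myeloid, interferon and immediate-early and heat-shock lists had 1 each. Below both were 1 neuronal gene and 1 thymocyte marker. Ttr averaged 98.1 CPM in wild type, 278 CPM in heterozygotes and 108 CPM in homozygotes. Apoc3 averaged 170, 338 and 116 CPM in the same order, and Apob 17.4, 33 and 7.4 CPM.

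A set of AIRE-dependent genes was taken from libraries outside this comparison, namely the 1294 genes that Aire -/- mice held below the wild type of their own C57BL/6 line by 2-fold or more, with a call. Of these 1241 were tested here, and 808 (65.1%) were called lower in C442G heterozygotes and 5 higher, with a median log2 fold change of -1.10. The set took 4.48, 4.93 and 5.15% of counts in wild type and 2.73, 2.63, 2.86, 2.54 and 2.56% in heterozygotes. The groups were well apart, and homozygotes held 0.925 to 1.08%. Without its 5 most abundant members (Reg3g, Saa3, S100a8, Gpx3 and Apoa4) the set took 4.15 ± 0.354% (SD, n = 3) in wild type and 2.06 ± 0.134% (SD, n = 5) in heterozygotes.

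The opposite set, 598 genes that passed the same limits upward in Aire -/- mice, moved the other way. Of 596 tested, 387 (64.9%) were called higher in C442G heterozygotes and 2 lower, with a median of 0.73. Its share of counts was 4.20, 4.47 and 4.22% in wild type and 7.44, 6.61, 6.69, 6.64 and 7.06% in heterozygotes. Homozygotes held 7.74 to 8.26%. When the call was confined to libraries low in Y-linked transcripts, 47.9% of the first set were lower and 51% of the second higher. Among the libraries high in them, with 1 wild type, these shares were 25.9 and 38.6%.

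Fewer genes were detected in heterozygotes. After each library was thinned to 1751301 counts, 16012 ± 121 genes (SD, n = 3) had at least 1 count in wild type and 15600 ± 98 (SD, n = 5) in heterozygotes. The difference of -412 genes reached the smallest p that 56 arrangements of these libraries allow (exact permutation test, two-sided, p = 0.0357). With at least 3 counts as the limit the difference was -1002 genes, at the same p. Homozygotes had 14718 ± 86 genes with at least 1 count (SD, n = 6).

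**Figure D4:**
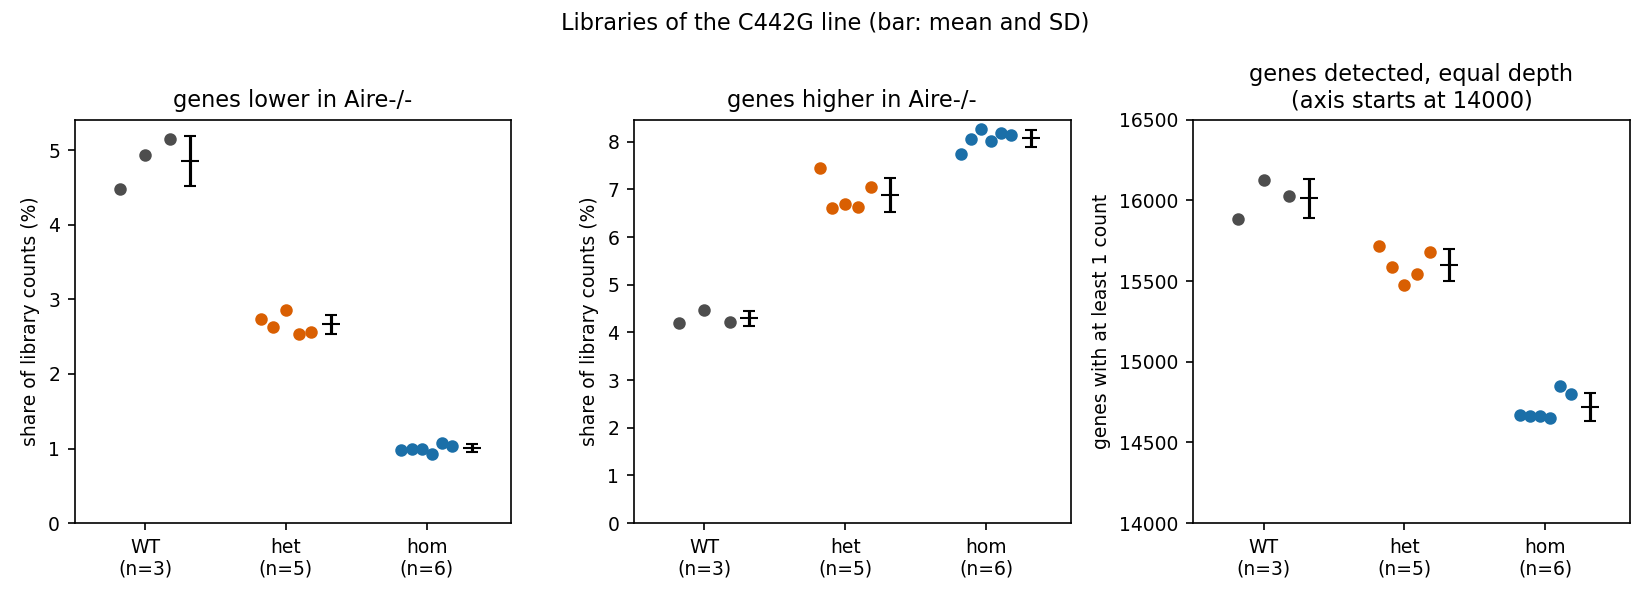
Share of each library's counts taken by genes lower (left) and higher (middle) in Aire -/- mice, in percent, and genes with at least 1 count after thinning to equal depth (right, axis not from 0). Points are libraries of wild types, C442G heterozygotes and C442G homozygotes, bars are means and SD. Heterozygotes hold 2.54 to 2.86% against 4.48 to 5.15% in wild type on the left, and 6.61 to 7.44% against 4.20 to 4.47% in the middle.

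The change in C442G heterozygotes was set against heterozygotes of 3 other C57BL/6 lines, Aire +/- (5 libraries), Aire +/Y86C (3) and Aire +/C313X (2), each against 3 wild types of its own line, in 1 fit of 43 libraries and 14547 genes. In that fit 3764 genes (25.9%) were called in C442G heterozygotes, 1833 higher (12.6%) and 1931 lower (13.3%). In Aire +/- 15 genes (0.103%) were called, 8 higher (0.055%) and 7 lower (0.0481%). In Aire +/Y86C there were 35 (0.241%), 31 higher (0.213%) and 4 lower (0.0275%), and in Aire +/C313X also 35 (0.241%), 34 higher (0.234%) and 1 lower (0.00687%). Counts of calls depend on the number and spread of libraries, so the differences from Aire +/- and Aire +/Y86C were tested directly. The difference from Aire +/C313X was not tested. The C442G effect differed from that of Aire +/- for 837 genes (5.75%), 326 (2.24%) with the higher and 511 (3.51%) with the lower value in C442G. With RLE scaling these were 231 and 599, so that the lower share of the calls went from 61.1 to 72.2%. Without wild type 430 of the Aire +/- line 516 genes differed. Against Aire +/Y86C 408 genes (2.8%) differed, 117 higher (0.804%) and 291 lower (2%) in C442G. That count fell to 233 to 271 without wild type 89 of the C442G line or any 1 of the 6 libraries of the Aire +/Y86C line, and was 684 in a fit of these 2 lines alone. The difference between lines for Aire itself did not pass the test ( 0.29 ± 0.20 from Aire +/-, adjusted p = 0.451, and 0.10 ± 0.21 from Aire +/Y86C, adjusted p = 0.870).

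Of 1276 genes lower in Aire -/- mice in that fit 308 had a called lower value in C442G heterozygotes than in Aire +/- and 1 a higher one (median difference -0.88), and 196 and 0 against Aire +/Y86C (median -0.80). The wild types that chose the set also serve Aire +/-, so the first of these comparisons is not free of that choice. Of 592 genes higher in Aire -/- mice 94 were higher and 5 lower in C442G than in Aire +/- (median difference 0.38). Against Aire +/Y86C 35 were higher and 0 lower (median 0.35). For the 1276 genes the median log2 fold change in C442G heterozygotes was -1.09. In Aire +/-, Aire +/Y86C and Aire +/C313X it was -0.19, -0.3 and -0.08. For the 592 genes the medians were 0.76, 0.39, 0.44 and 0.08 in the same order. The medians of Aire +/- and Aire +/Y86C thus had the direction of those of C442G, with smaller values.

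Ctla4 was among the largest differences against both lines. Its mean went from 6.09 to 42.7 CPM in the C442G line, from 5.85 to 6.26 CPM with Aire +/- and from 7.41 to 11.6 CPM with Aire +/Y86C. The difference was 2.79 ± 0.65 (adjusted p = 0.0079) from Aire +/- and 2.10 ± 0.60 (adjusted p = 0.0488) from Aire +/Y86C. Lce1i went from 11.8 to 0.708 CPM in the C442G line, from 5.45 to 6.33 with Aire +/- and from 19.8 to 15.8 with Aire +/Y86C, differences of -4.20 ± 0.68 and -3.82 ± 0.63. Il17b, a cytokine gene of epithelia, went from 16.5 to 1.91 CPM in the C442G line and from 14.4 to 20.2 CPM with Aire +/Y86C, a difference of -3.45 ± 0.60. Wild-type levels differed between lines for some of these genes, as Lce1i shows.

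**Figure D5:**
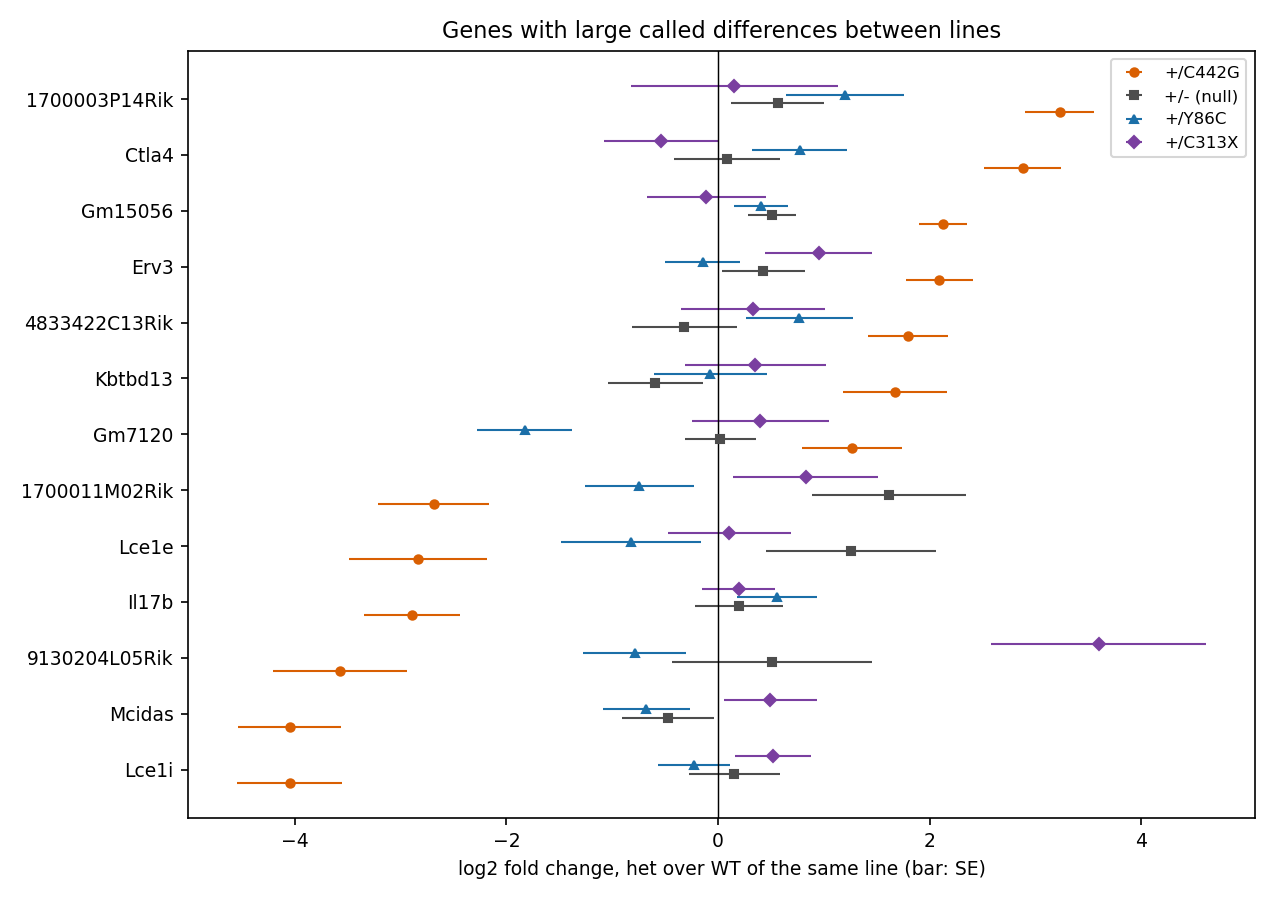
Log2 fold change of heterozygotes over the wild type of the same line (horizontal axis, points, bars are SE) for 13 genes with large called differences between lines, in C442G, Aire +/-, Aire +/Y86C and Aire +/C313X. The C442G points lie at 1.26 or above for 7 genes and at -2.69 or below for the other 6, and most of the other points lie closer to 0, with 9130204L05Rik in Aire +/C313X (3.60) and Gm7120 in Aire +/Y86C (-1.83) as exceptions.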

How the data were processed

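The deposited table of the C442G line holds whole-number counts per gene for 14 libraries (16306 genes, each with at least 6 counts in some library). Per the labels' protocols, thymi were digested, mTEChi were sorted, and RNA was made into bulk MARS-seq libraries. The submitters' processing notes name bcl2fastq, cutadapt, STAR 2.4.2a, HTSeq, DESeq2 and the build mm10, and whether counting used strand or kept multi-mapping reads is not given in the sources used here. The authors also deposited log2 fold changes of their own comparison with adjusted p-values. Heterozygotes held 1383 genes higher and 1933 lower at an adjusted p under 0.05 in the authors' deposited table, and 3020 genes were called in the same direction there and here, 0 in opposite directions.

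Counts of all 14 libraries entered 1 edgeR 4.0.16 fit (R 4.3.3, limma 3.58.1) with TMM scaling, edgeR's filter on low counts by group, and the robust quasi-likelihood test, with genotype as the factor, so that homozygotes add to the estimate of spread. Of the genes, 13624 were tested, p-values were adjusted by Benjamini-Hochberg over them, and called means an adjusted p under 0.05. CPM are counts over the plain library total, without TMM factors. These factors were 1.07 to 1.13 in wild type and 0.949 to 1.04 in heterozygotes. The log2 fold changes of heterozygotes over wild type therefore lie somewhat above those that the printed CPM would give. Detected genes were counted after binomial thinning to 1751301 counts (seed 1). The AIRE-dependent sets came from homozygotes and wild types of the Aire -/- line. A joint fit used 14815 genes shared by the tables of 4 C57BL/6 lines. The procedure was tested on simulated data. Genes were placed with the GRCm38 annotation. Labelled columns were used, and 1 library of the series with conflicting labels was in no group.

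The members and the gene lists were chosen with earlier results of these data known. Genes were named by a rule: Aire, Dnmt3l and Icosl, the 10 largest called changes each way with ranges that do not overlap and at least 5 CPM in the higher group (passing over symbols of unnamed genes), the 4 called members of each list with the smallest p, and the 4 largest called differences between lines each way. Other list members given with values, such as Ttr, F2, Des or Calcb, the neighbours Cstb and Trappc10, Dnah9 and Nhlh2 were named after their values were seen. A few genes that the rule names are not reported here. Alternatives were DESeq2 1.42.0, RLE scaling, no filter on low counts, a fit of the 2 groups alone, a term for Y-linked transcripts, other sets, and leaving out each library. The term at 30 CPM of Y-linked transcripts and the values within its 2 classes were added after seeing the data, since the planned limit of 5 CPM falls inside the low class.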

Additional observations from a re-analysis of the deposited data

Results flagged for a closer look

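Dixon's test was run on the 5 heterozygotes for 118 measures (the named genes and 5 library measures), and in 13 of them 1 library stood apart from the other 4. Chance alone flags about 5% of groups. Heterozygote 82 was high for Panct2 (10.4 CPM), Crybb2 (14.3 CPM) and C1qc (46.2 CPM) and low for Reg4 (6.91 CPM). Heterozygote 81 was high for Pcp2 (5.96 CPM), Dynlrb2 (3.67 CPM) and Itga6 (196 CPM). Heterozygote 85 was high for Wap (10 CPM) and Krt1 (16 CPM) and low for Cryaa (11.5 CPM) and Col1a1 (8.55 CPM). Heterozygote 91 was high for Cela3b (15.7 CPM), and heterozygote 87 was low for Cd3d (4.06 CPM).

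The change in C442G heterozygotes differed, by the test of the difference, from that in Aire +/- for 837 genes and from that in Aire +/Y86C for 408. The named differences from Aire +/- were, on the log2 scale, 2.79 for Ctla4, 2.66 for 1700003P14Rik, 2.27 for Kbtbd13, 2.11 for 4833422C13Rik, -4.30 for 1700011M02Rik, -4.20 for Lce1i, -4.09 for Lce1e and -4.08 for 9130204L05Rik. Those from Aire +/Y86C were 3.09 for Gm7120, 2.24 for Erv3, 2.10 for Ctla4, 1.72 for Gm15056, -3.82 for Lce1i, -3.45 for Il17b and -3.37 for Mcidas. In the Aire +/- line 1700011M02Rik went from 1.13 to 3.47 CPM, Lce1e from 2.43 to 6.45 CPM and 9130204L05Rik from 0.914 to 1.14 CPM, which are low levels. The rises there of 1700011M02Rik (log2 fold change 1.62, adjusted p = 0.631) and Lce1e (1.26, adjusted p = 0.837) were not called and add to their differences. Gm7120 went from 2.31 to 6.33 CPM in the C442G line (log2 fold change 1.26) and from 15.4 to 4.46 CPM in the Y86C line (-1.83, adjusted p = 0.0603), so the larger part of its difference lay in the Y86C line, and the wild types of the 2 lines were themselves apart.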

How the results depend on the processing

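Of the 113 genes named from the comparison of heterozygotes with wild type, 112 kept direction and call with DESeq2 (1 lost the call), 111 with RLE scaling (2 lost it), 110 without the filter on low counts (3 lost it) and 108 of 112 in a fit of heterozygotes and wild types alone (4 lost it). With a term for Y-linked transcripts 3 of the 113 lost the call at a split of 30 CPM and 10 at the planned 5 CPM, and 24 lost it within the libraries low in these transcripts and 38 within those high in them. When 1 library was left out, 856 of 904 gene results kept both and 48 lost the call, and no sign changed. The number of calls was 3222 with DESeq2 (1383 higher, 1839 lower), 3514 with RLE (1469 and 2045), 4125 without the filter and 2941 with the 2 groups alone. It ran from 2889 (without wild type 89) to 3717 (without heterozygote 85) when 1 library was left out, with Aire at 0.41 to 0.55. The list counts moved by over 1.5 times in 22 of 56 cases within the libraries low in Y-linked transcripts and in 36 of 56 within those high in them. Within libraries low in Y-linked transcripts there were 1958 calls (949 higher, 1009 lower) and Aire stood at 0.46. Within those high in them there were 1321 (698 and 623), Aire stood at 0.45, and 25.9% of the genes lower and 38.6% of the genes higher in Aire -/- mice were called, where 1 wild type remains. The loss of detected genes ran from -476 to -356 with 1 library left out, where the smallest p that can be reached is 0.0571 without a heterozygote and 0.0952 without a wild type. The difference from Aire +/- ran from 516 to 905 genes (147 to 384 higher, 340 to 528 lower), with the lowest total without wild type 430 of that line and the fewest higher without wild type 86. The difference from Aire +/Y86C ran from 233 to 391 genes (47 to 125 higher, 177 to 307 lower), and was 684 (219 and 465) in a fit of the 2 lines alone. With RLE and DESeq2 the lower share of calls went from 61.1 to 72.2 and 70.9% against Aire +/-, and from 71.3 to 80.2 and 75.2% against Aire +/Y86C. RLE moved the median of all genes from 0.01 to -0.04. The cause of these shifts was not tested. No paired analysis was possible because the heterozygotes and wild types of this line share no replicate number. Low counts limit the genes under about 5 CPM, which at the smallest total are few counts.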

Other observations

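Among the genes highest in heterozygotes of the 3 genotypes of this line were 2 more of the intestine. Ces2e, an intestinal carboxylesterase gene, averaged 31.5 CPM in wild type, 79 CPM in heterozygotes and 38.2 CPM in C442G homozygotes, and Sis, the brush border enzyme sucrase-isomaltase, 19.3, 35.8 and 19.3 CPM. Genes lower in heterozygotes than in both other genotypes included Cngb1, a channel subunit of rod photoreceptors, at 24.3, 9.55 and 14.4 CPM in the same order, Lamb2, a laminin chain of basement membrane, at 36.6, 21.1 and 30.8 CPM, and the thymocyte kinase gene Lck. These genes were chosen after their values were seen.

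Another 2 genes besides Nhlh2 were high in a single library of the table: Gm10436 had 71 counts in heterozygote 81 and at most 5 elsewhere, and Trim30d had 236 counts in homozygote 93 and at most 19 elsewhere.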
